A study of Mus musculus with 6 samples.

Results

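A set of 10 genes of thymic chemokine traffic was examined: the ligand genes Ccl19, Ccl25, Cxcl12, Ccl17, Ccl22 and Ccl3 and the receptor genes Ccr7, Ccr9, Cxcr4 and Ccr4. Each of the 10 was measured by its brightest probe set (the highest mean log2 signal over the arrays) among those that the array annotation paired with its symbol alone, out of 19938 genes measured in that way. RNA came from whole thymus of 10-day-old mice. The RUNX2/MYC group (3 arrays) carried both the CD2-Runx2 and the CD2-Myc transgene on a C57BL6/CBA background, and the WT group (3 arrays) was C57/CBA of the same age without a transgene. CD2 control elements drive both transgenes in the T-cell lineage, from early lymphoid precursors onward. Each array was labeled as a separate biological replicate, and the controls were littermate-matched per the methods. How many animals each RNA came from is not given in the sources used here.

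Chemokines are small secreted proteins that attract cells bearing the matching G protein-coupled receptor. In the thymus, epithelial and dendritic cells secrete chemokines that draw blood-borne progenitors into the organ, hold immature thymocytes in the cortex and call positively selected thymocytes to the medulla, so ligand and receptor are mostly made by different cells of the same tissue. CCL19 binds CCR7, CCL25 binds CCR9, CXCL12 binds CXCR4, and CCL17 and CCL22 share CCR4. CCL3 is an inflammatory chemokine of activated lymphocytes and macrophages.

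The labels of the arrays were checked first. Runx2 had log2 signals of 11.73, 11.78 and 11.96 on the RUNX2/MYC arrays, against 7.94, 7.94 and 7.93 on the WT arrays (adjusted p = 4.27e-05 from limma). The mouse Myc probe set, which need not read a MYC transgene, lay at 10.51 to 10.88 on the RUNX2/MYC arrays and 11.00 to 11.26 on the WT arrays. Thymocyte and epithelial markers were bright on every array: Rag1, which cuts receptor genes in thymocytes, had log2 signals of 11.69 to 12.17 on the RUNX2/MYC arrays and 12.38 to 12.72 on the WT arrays, and the epithelial factor gene Foxn1 had 8.77 to 8.85 and 9.00 to 9.08 on the RUNX2/MYC and WT arrays, while 25% of all probe sets averaged below 6.15. On the first principal component an array of each group lay away from its own group and toward the other, RUNX2/MYC replicate 1 at -6.79 and WT replicate 3 at 5.15, and RUNX2/MYC replicate 2 stood apart by adipocyte genes (8 of 12 measured were highest there).

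Of the 10 genes, RUNX2/MYC thymus had 1 lower (Ccl19) and 1 higher (Ccl3) in limma, a moderated linear model, with calls at a Benjamini-Hochberg adjusted p under 0.05 over all 35556 probe sets. Over all probe sets 0.127% were lower and 1.68% higher by the same rule. The q values of the methods called Ccl19 and Ccl3 too, beside 0.695% of all probe sets lower and 3.41% higher. In 6 of the 10 genes no RUNX2/MYC array overlapped a WT array (5 lower, 1 higher), against 24.4% of all probe sets (10.1% lower, 14.3% higher). The same 6 genes had an unadjusted p under 0.05, beside 9.27% of all probe sets lower and 12.0% higher at that level. The median log2 fold change of the 10 was -0.16, beside -0.051 over all probe sets and -0.065 over the 19938 genes. The differences lay among the ligands, of which 5 of 6 had no overlap between groups, more than among the receptors, of which Cxcr4 alone had none, a contrast between small lists that was not tested. Among these 5 ligands Ccl25 was counted as lower by its brighter probe set, and its dimmer one separated the groups in the opposite direction.

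**Figure D1:**
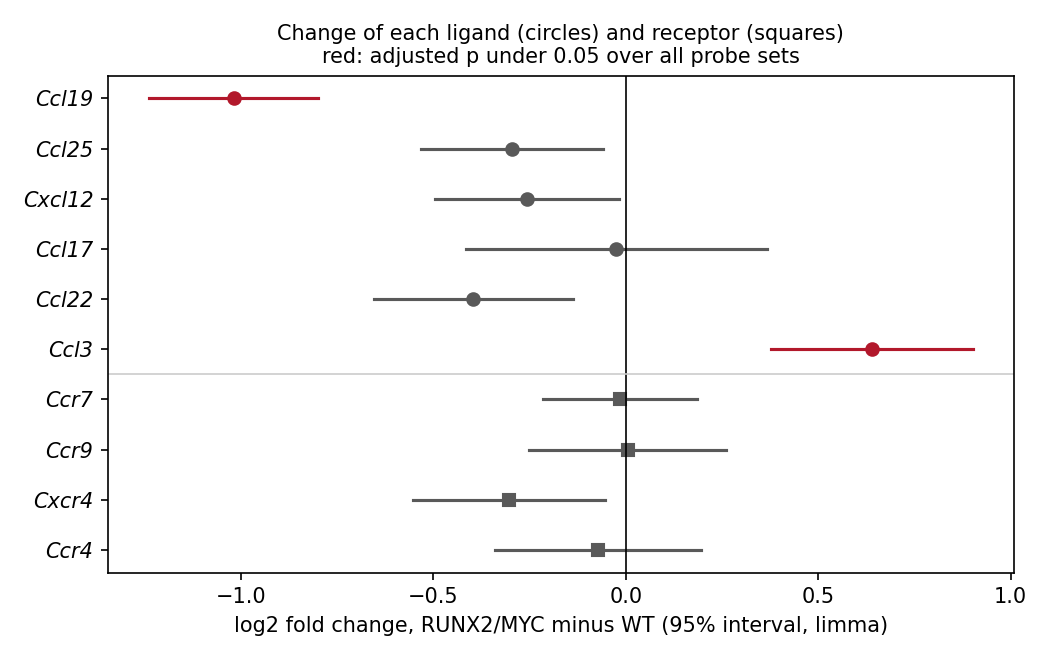
Log2 fold change of each gene, RUNX2/MYC minus WT, with its 95% interval from limma, for 6 ligands (circles) and 4 receptors (squares). Red marks the genes past an adjusted p of 0.05, Ccl19 at -1.02 and Ccl3 at 0.64, and the intervals of Ccl17, Ccr7, Ccr9 and Ccr4 include 0.

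The promoters of Ccl19 and Ccl3 are shown because these genes passed the test in opposite directions in tissue that carries a RUNX and a MYC transgene. Both are the 250 bases before the RefSeq gene start (assembly GRCm38.p6), 5′ to 3′ on the strand of the gene, with any RUNX core motif (TGTGGT on either strand) or MYC E-box (CACGTG, the same on both strands) in capitals. The Ccl19 promoter is chr4:42756366-42756615 (minus strand) and the Ccl3 promoter is chr11:83649379-83649628 (minus strand), each directly upstream of its gene.
Ccl19: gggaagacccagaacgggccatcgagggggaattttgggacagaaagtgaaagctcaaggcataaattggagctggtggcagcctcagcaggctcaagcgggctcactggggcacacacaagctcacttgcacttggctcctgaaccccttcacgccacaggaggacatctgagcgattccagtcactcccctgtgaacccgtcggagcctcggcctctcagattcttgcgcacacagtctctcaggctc
Ccl3: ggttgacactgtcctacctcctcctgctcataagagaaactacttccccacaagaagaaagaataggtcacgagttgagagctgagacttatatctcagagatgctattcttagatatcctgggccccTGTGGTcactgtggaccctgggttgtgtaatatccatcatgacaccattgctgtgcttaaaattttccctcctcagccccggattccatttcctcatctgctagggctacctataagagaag
The Ccl3 window holds 1 RUNX motif, starting at position -122 from the gene start, and the Ccl19 window holds none, and neither holds an E-box. RefSeq promoters were matched for 9 of the 10 genes (10 windows, with 2 starts for Ccl25), and that of Ccl3 was the 1 window with a RUNX motif, while 0 held an E-box. Of all 32851 promoter windows of this length, 14.0% hold the RUNX motif and 6.02% the E-box. A match of letters is a description of the sequence and not a measured binding site.

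Ccl19, which is made by epithelium of the thymic medulla and attracts maturing thymocytes that carry CCR7, was lower in RUNX2/MYC thymus. Its log2 signals were 8.73, 8.62 and 8.72 on RUNX2/MYC replicates 1 to 3, against 9.81, 9.72 and 9.59 on WT replicates 1 to 3. The RUNX2/MYC mean was 8.69 ± 0.061 and the WT mean 9.71 ± 0.11 (SD, n = 3 each), and every RUNX2/MYC array lay below every WT array. The log2 fold change was -1.02 (SE 0.093, adjusted p = 0.0140 from limma), so that the signal in RUNX2/MYC was 0.494 of that in WT. The exact permutation test of this value gave p = 0.1, the smallest that 3 arrays against 3 allow. The call ended when any of 4 arrays was left out, namely RUNX2/MYC replicate 2 (adjusted p = 0.0870) or 3 (0.0865) and WT replicate 1 (0.0696) or 2 (0.110), although the log2 fold change stayed between -1.07 and -0.97 whichever array was left out. As whole organs were measured, fewer cells of a type and less RNA per cell cannot be told apart here or below.

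Ccl19 is read by 5 probe sets of the array. All 5 were lower in RUNX2/MYC thymus, with log2 fold changes of -1.02 for 3 of them, -0.99 for the next and -0.91 for the last, and adjusted p values of 0.0140 to 0.0228 from limma. They do not amount to 5 measurements. The probe sets 10504159 and 10512322 hold identical values on all 6 arrays, and the RefSeq table lists 3 Ccl19 pseudogenes on chromosome 4 beside the gene itself, so the probe sets may share probes or read near-identical copies. The signal of single copies cannot be separated. The Ccl21 genes, whose products also bind CCR7, lie in the same duplicated cluster. Their probe sets pair with several genes at once and were left unnamed.

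**Figure D2:**
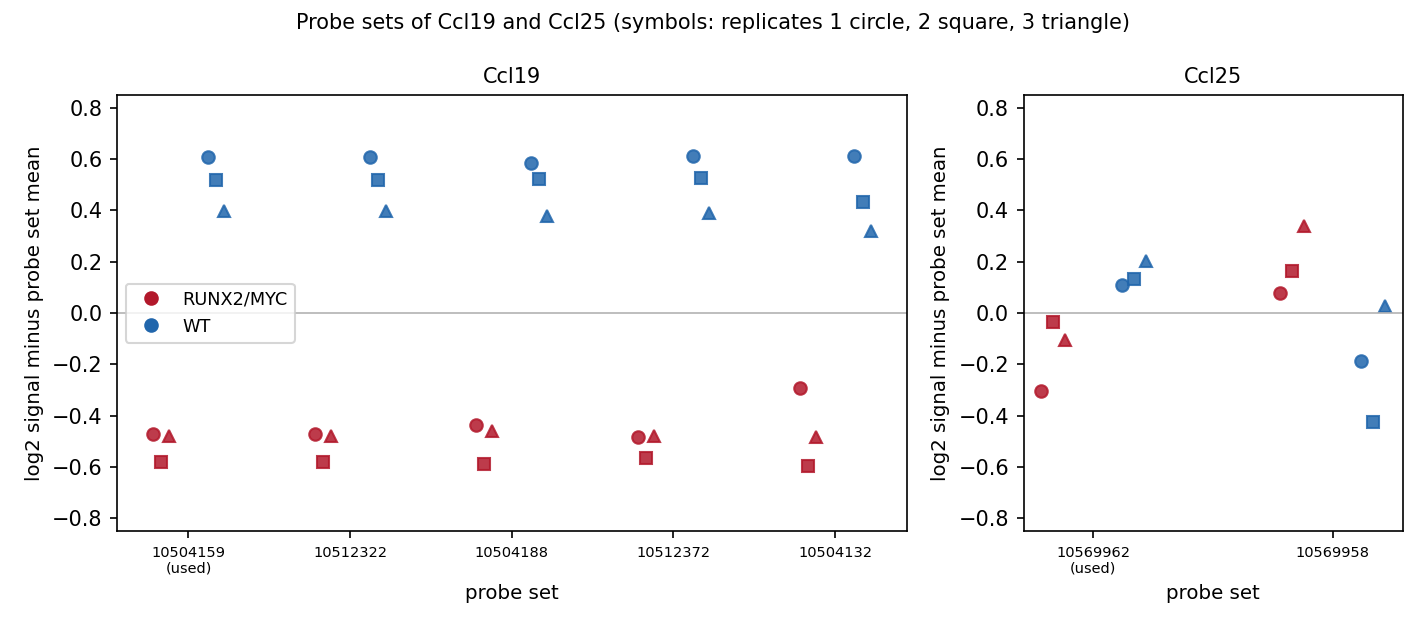
Log2 signal of each array minus the mean of that probe set over the 6 arrays, for the 5 probe sets of Ccl19 and the 2 of Ccl25, with RUNX2/MYC in red and WT in blue. All Ccl19 probe sets lie lower in RUNX2/MYC, while those of Ccl25 run in opposite directions.

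Ccr7, the receptor for CCL19, is switched on as thymocytes are positively selected. Its log2 signals were 10.29, 10.44 and 10.35 on the RUNX2/MYC arrays and 10.39, 10.32 and 10.41 on the WT arrays. The groups overlapped, and the log2 fold change was -0.015 (SE 0.085, adjusted p = 0.920 from limma), with a 95% interval from -0.22 to 0.19. This interval does not reach the change seen for the ligand. A test of the difference between the ligand and its receptor was not made, as they are read by different probes.

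Ccl25, the ligand of cortical epithelium and a guide of CCR9-bearing progenitors and thymocytes, is covered by a pair of probe sets that disagree. The brighter of the 2 had log2 signals of 12.03, 12.30 and 12.23 on the RUNX2/MYC arrays, against 12.45, 12.47 and 12.54 on the WT arrays. The groups did not overlap, but the log2 fold change of -0.30 (SE 0.10, adjusted p = 0.176 from limma) did not pass. The dimmer one had 8.00, 8.08 and 8.26 on the RUNX2/MYC arrays, against 7.73, 7.50 and 7.95 on the WT arrays, again without overlap but in the opposite direction (log2 fold change 0.39, SE 0.14, adjusted p = 0.188). The brighter minus the dimmer within each array was 4.03, 4.22 and 3.97 in RUNX2/MYC and 4.71, 4.97 and 4.60 in WT, a difference of -0.68 that restates the opposite directions and was given no test. The annotation ties the dimmer probe set to a non-coding transcript record of the gene and to 1 cDNA clone, and the brighter one to the coding transcript as well. With the mean of both probe sets the log2 fold change of Ccl25 was 0.046.

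Ccr9, the receptor for CCL25 and a gene of double-positive thymocytes, had log2 signals of 12.20, 12.51 and 12.41 on the RUNX2/MYC arrays and 12.38, 12.30 and 12.43 on the WT arrays. The ranges were nested, with both the lowest and the highest value in RUNX2/MYC. The log2 fold change was 0.0046 (SE 0.11, adjusted p = 0.981 from limma, 95% interval -0.25 to 0.26), and its sign turned under other scalings of the arrays.

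Cxcl12, made by cortical epithelium and mesenchyme and known for keeping early thymocytes in place and supporting their survival at β-selection, had log2 signals of 8.23, 8.44 and 8.40 on the RUNX2/MYC arrays, against 8.57, 8.54 and 8.73 on the WT arrays. The arrays of the groups did not overlap, but the log2 fold change of -0.26 (SE 0.10, adjusted p = 0.215 from limma) did not pass. Its receptor gene Cxcr4 had 10.82, 11.13 and 10.91 on the RUNX2/MYC arrays, against 11.21, 11.31 and 11.25 on the WT arrays. Here too every RUNX2/MYC array lay below every WT array, with a log2 fold change of -0.30 (SE 0.10, adjusted p = 0.183). The 95% intervals ran from -0.50 to -0.018 for the ligand and from -0.55 to -0.055 for the receptor before adjustment for the number of probe sets.

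Ccl22 and Ccl17 encode ligands of CCR4 that are made by dendritic cells and, in the medulla, by epithelium. Ccl22 had log2 signals of 9.68, 10.01 and 9.83 on the RUNX2/MYC arrays, against 10.25, 10.31 and 10.16 on the WT arrays. The groups did not overlap, and the log2 fold change was -0.40 (SE 0.11, adjusted p = 0.125 from limma). Ccl17 had 8.48, 8.98 and 8.58 on the RUNX2/MYC arrays and 8.85, 8.79 and 8.46 on the WT arrays, so that replicate 2 of RUNX2/MYC was the highest and replicate 3 of WT the lowest of all 6. Its log2 fold change, -0.024 (SE 0.17, adjusted p = 0.935), had the widest interval of the 10 genes, from -0.42 to 0.37.

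Ccr4, found on thymocytes after positive selection and on regulatory T cells, had log2 signals of 9.77, 10.08 and 9.91 on the RUNX2/MYC arrays and 10.06, 10.06 and 9.86 on the WT arrays. The groups overlapped, and the log2 fold change was -0.071 (SE 0.11, adjusted p = 0.701 from limma, 95% interval -0.34 to 0.20).

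**Figure D3:**
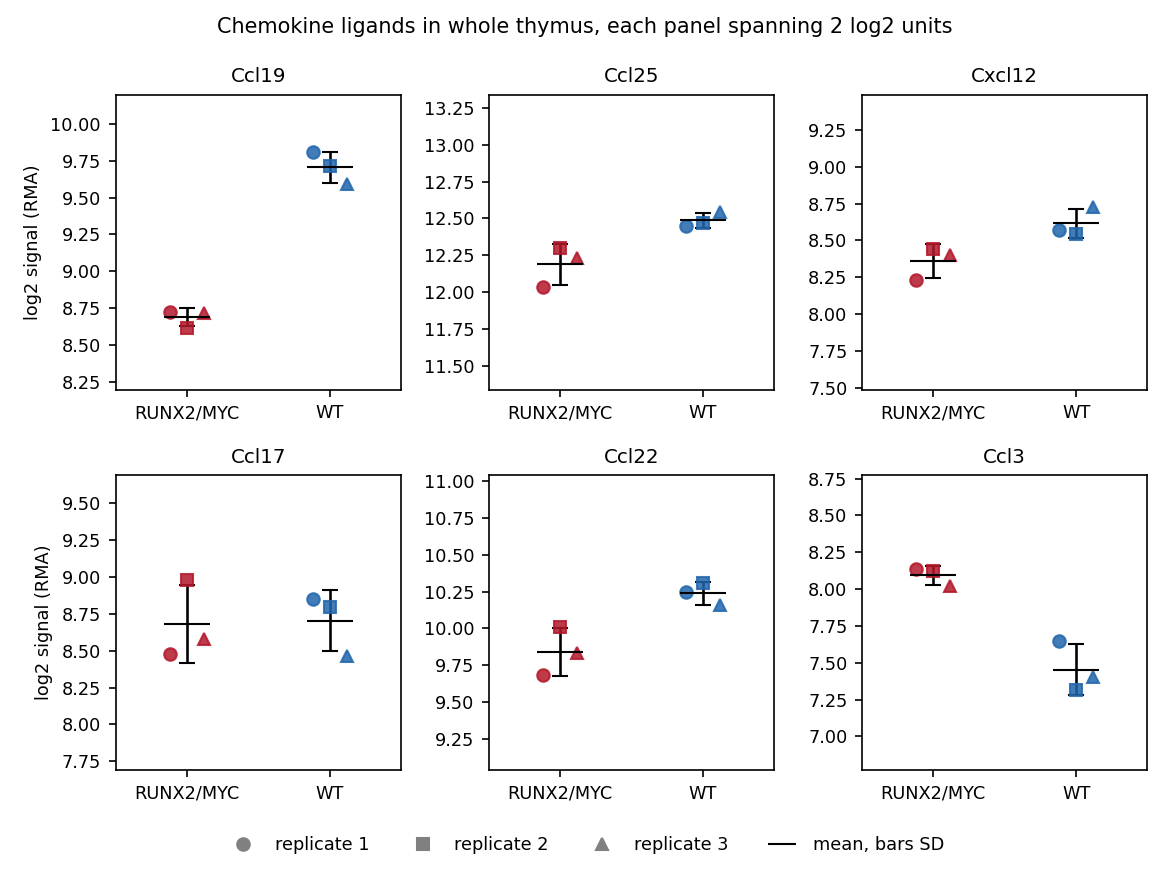
Log2 signal of the 6 ligand genes on each array, RUNX2/MYC at the left of each panel and WT at the right, with the mean and SD (n = 3) in black. Ccl19 (8.69 against 9.71) and Ccl3 (8.09 against 7.45) have the widest gaps between groups, and Ccl17 overlaps.

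**Figure D4:**
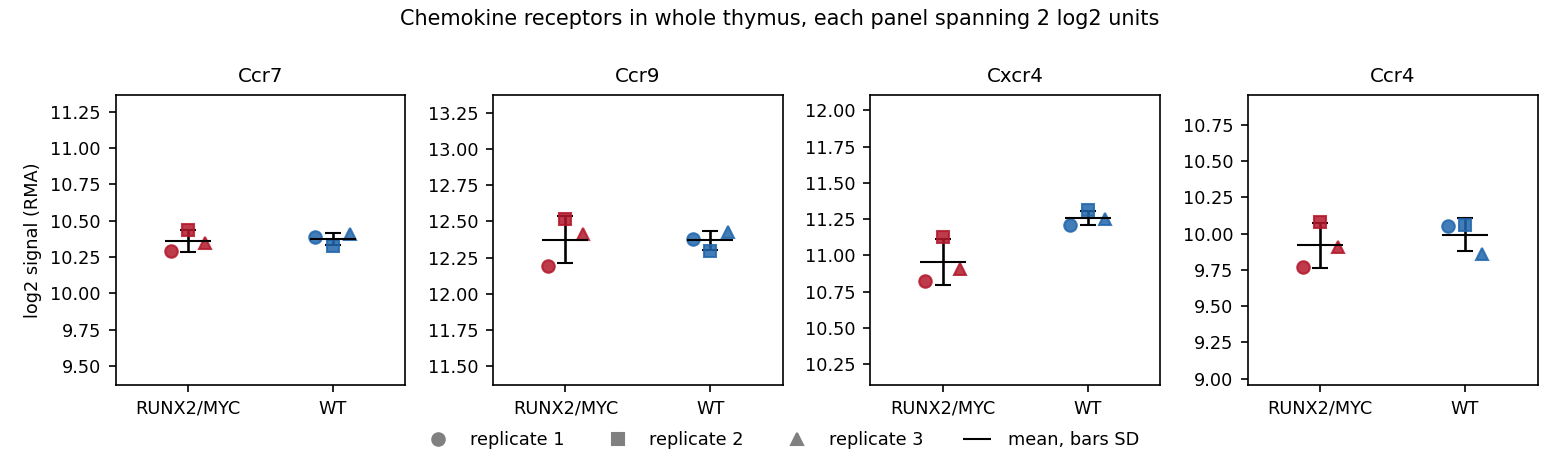
Log2 signal of the 4 receptor genes on each array, RUNX2/MYC at the left of each panel and WT at the right, with the mean and SD (n = 3) in black. The groups overlap for Ccr7, Ccr9 and Ccr4, and Cxcr4 lies lower in RUNX2/MYC (10.95 against 11.26).

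Ccl3, the ligand also known as MIP-1α, was the 1 gene of the 10 called higher. Its log2 signals were 8.14, 8.12 and 8.02 on RUNX2/MYC replicates 1 to 3, against 7.64, 7.31 and 7.40 on WT replicates 1 to 3. The RUNX2/MYC mean of 8.09 ± 0.065 (SD, n = 3) stood above the WT mean of 7.45 ± 0.17 (SD, n = 3), a log2 fold change of 0.64 (SE 0.11, adjusted p = 0.0439 from limma) or 1.56-fold. The difference was larger than the spread between arrays, but the call is close to the threshold. It ended whichever single array was left out, with adjusted p values of 0.0524, 0.182 and 0.150 on dropping RUNX2/MYC replicates 1, 2 and 3 and of 0.0773, 0.216 and 0.0748 on dropping WT replicates 1, 2 and 3. When arrays were centered on their 75th percentiles it ended as well (log2 fold change 0.54, adjusted p = 0.127).

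The other chemokine ligands of the mouse were read from a list of 34 genes, of which 30 were measured by a probe set of their own. None passed limma at an adjusted p under 0.05, where 1.80% of all probe sets passed in either direction, and 10 of the 30 had an unadjusted p under 0.05 (21.3% of all probe sets). The median log2 fold change was -0.16, and 23 of the 30 were below 0, as were 57.7% of all probe sets. The genes with the largest log2 fold changes in either direction were ligands of CXCR3 and XCR1. Ccl24 had the smallest adjusted p of the 30 (0.0514 from limma), with a log2 fold change of -0.46 and no overlap between groups. Cxcl10, an interferon-induced ligand of CXCR3, had log2 signals of 9.10, 8.91 and 9.21 on the RUNX2/MYC arrays, against 10.33, 9.51 and 9.86 on the WT arrays (log2 fold change -0.82, adjusted p = 0.101). Cxcl11, a ligand of the same receptor, had 9.26, 9.34 and 9.16 on the RUNX2/MYC arrays, against 8.06, 8.95 and 8.87 on the WT arrays (0.63, adjusted p = 0.202), and the log2 fold change was 0.34 without WT replicate 1. Both were without overlap between groups and had opposite signs. Xcl1, lymphotactin, which attracts cross-presenting dendritic cells, had 8.40, 8.82 and 8.38 on the RUNX2/MYC arrays, against 7.56, 7.76 and 7.99 on the WT arrays (0.76, adjusted p = 0.0723).

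Of 20 further chemokine receptor genes, atypical receptors included, 19 were measured and none passed in limma (1.80% of all probe sets), while 6 had an unadjusted p under 0.05 (21.3% of all probe sets). Their median log2 fold change was -0.13, beside -0.051 over all probe sets. Cxcr5, the receptor of follicular lymphocytes, had log2 signals of 6.34, 6.36 and 6.25 on the RUNX2/MYC arrays, against 5.97, 5.93 and 5.87 on the WT arrays, giving a log2 fold change of 0.40 (limma adjusted p = 0.0689). It passed with the q values of the methods (q = 0.0281) and under median centering (adjusted p = 0.0418), quantile normalization (0.0399), cyclic loess (0.0360), probe sets of 1 symbol (0.0325), array weights (0.0136) and a replicate block (0.0488). It did not pass under 75th percentile centering (log2 fold change 0.30, adjusted p = 0.208), with limma-trend (0.0714), with the test of the methods after Benjamini-Hochberg (0.0692) or without any single array (0.0686 to 0.285). The neutrophil receptor gene Cxcr2 stood at a log2 fold change of -0.62 (limma adjusted p = 0.209), with WT replicate 3 highest at 6.65 and the other 5 arrays at 5.38 to 5.89 (log2 fold change -0.34 without that array), and the eosinophil receptor gene Ccr3 had -0.56 (adjusted p = 0.163). Cxcr5, Cxcr2 and Ccr3 were dim, each averaging below 6.15 over the arrays as did 25% of all probe sets. The filter on dim probe sets removed them.

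Downstream of the receptors, 42 of 45 listed genes of G protein signaling, desensitization and the cytoskeleton were measured, with a median log2 fold change of -0.027 (-0.051 over all probe sets). There 1 was higher and 0 lower in limma, and 7 had an unadjusted p under 0.05, where 1.80% and 21.3% of all probe sets did, so that the shares of the list stood near or below those of all probe sets. The called gene was Rasgrp2, which activates the adhesion GTPase RAP1, with log2 signals of 9.89, 9.95 and 9.98 on the RUNX2/MYC arrays, against 9.25, 9.15 and 9.45 on the WT arrays. Its log2 fold change was 0.66 (SE 0.10, adjusted p = 0.0331), and the call ended when RUNX2/MYC replicate 2 (adjusted p = 0.152) or 3 (0.153) or WT replicate 1 (0.125) or 2 (0.174) was left out. Elmo1, a partner of DOCK2 in the activation of RAC, stood at a log2 fold change of 0.48 (limma adjusted p = 0.170), and Rgs19, which ends G protein signals, of 0.37 (adjusted p = 0.0811).

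**Figure D5:**
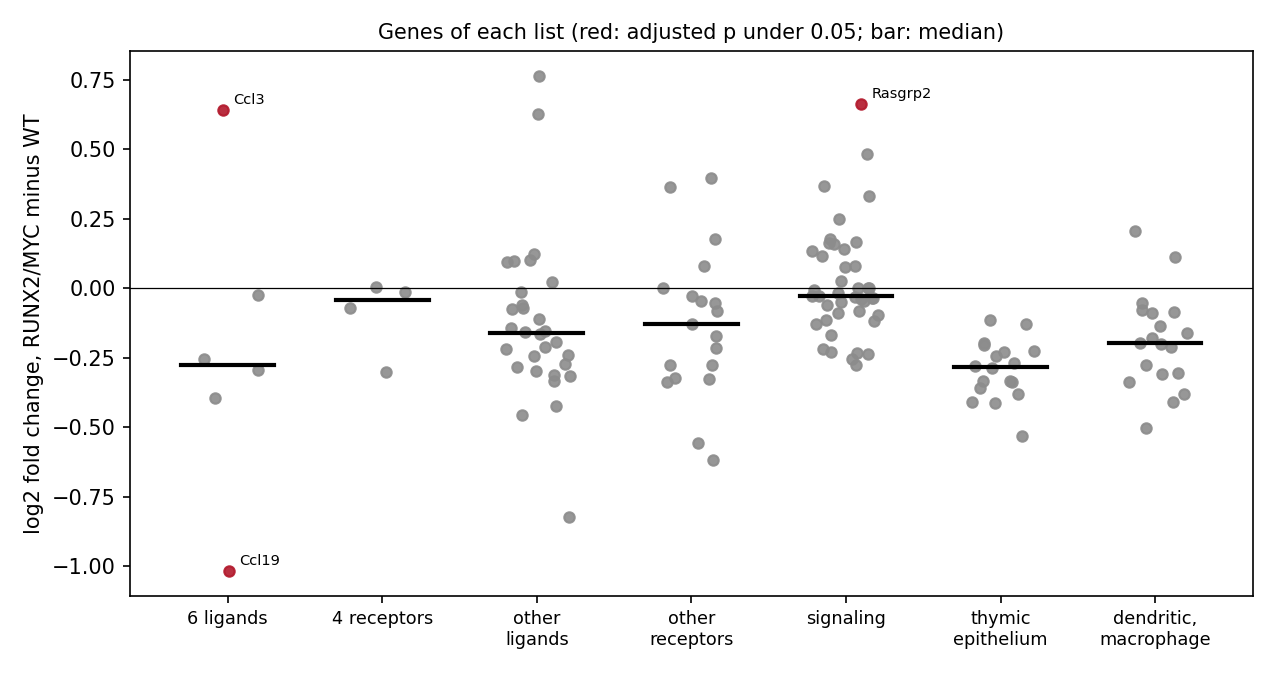
Log2 fold change, RUNX2/MYC minus WT, of every measured gene of the ligands, receptors, other chemokine lists and 2 lists of cell type markers, with red for an adjusted p under 0.05 and a black bar for the median of the list. The 3 red points are Ccl19, Ccl3 and Rasgrp2, and all 18 epithelial markers lie below 0.

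Markers of the cells that make the ligands were read beside them. All 18 measured markers of thymic epithelium had a negative log2 fold change (57.7% of all probe sets), and 13 of them were lower without overlap between groups (10.1% of all probe sets). None passed in limma (1.80% of all probe sets), and 10 had an unadjusted p under 0.05 (21.3% of all probe sets). Their median was -0.28, and the most negative was the keratin gene Krt8 at -0.53. Their summed signal on the linear scale was 14738 to 16366 on the RUNX2/MYC arrays and 19921 to 21567 on the WT arrays, without overlap. Krt8, Krt18 and Prss16 (log2 fold changes -0.53, -0.36 and -0.41) supplied most of that sum. The log2 fold changes of Cxcl12 (-0.26) and of the brighter Ccl25 probe set (-0.30) lay within the range of these markers, -0.53 to -0.12. Those of Ccl19 (-1.02) and of the dimmer Ccl25 probe set (0.39) lay outside it. Of 19 markers of dendritic cells and macrophages, 17 were negative, 9 were lower without overlap and 0 passed (7 at an unadjusted p under 0.05), beside the same shares of all probe sets, with a median of -0.20, and the plasmacytoid marker gene Siglech was the most negative at -0.50. Their summed signal was 16976 to 18288 on the RUNX2/MYC arrays and 20025 to 22153 on the WT arrays. Most of that sum came from the class II presentation genes Cd74, H2-Aa and H2-Ab1 (log2 fold changes -0.38, -0.41 and -0.31). It therefore says little about the other markers, of which Cd68 (0.20) and Lyz2 (0.11) were positive. Ccl22 (-0.40) and Ccl17 (-0.024) both lay within the range of the 19 markers, -0.50 to 0.20, which is wide and separates the genes little. Mesenchyme, the other source of Cxcl12, had 9 of 11 markers negative and 0 passing (1 at an unadjusted p under 0.05), with a median of -0.093 and a range of -0.39 to 0.23, and its summed signal, to which Thy1 of thymocytes also contributes, overlapped between groups (9162 to 11022 on the RUNX2/MYC arrays and 9987 to 10703 on the WT arrays). The part of these cells in the levels of the ligands was not tested.

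Beside the receptors, 8 of 11 measured markers of double-positive thymocytes had a negative log2 fold change (57.7% of all probe sets), with a median of -0.38. In limma 0 passed (1.80% of all probe sets), and 6 had an unadjusted p under 0.05 (21.3% of all probe sets). Their summed signal was 28522 to 35013 on the RUNX2/MYC arrays and 37699 to 42202 on the WT arrays. Of 10 markers of double-negative and immature thymocytes, 8 were negative (57.7% of all probe sets), with a median of -0.27. In limma 1 was lower (0.127% of all probe sets), Il2ra, a chain of the interleukin-2 receptor (log2 fold change -0.79, adjusted p = 0.0328). The summed signal of these markers was 5161 to 5829 on the RUNX2/MYC arrays and 6466 to 8633 on the WT arrays. Il2ra and Notch1 (log2 fold change -0.38) made up most of that gap, while Kit (0.062) and Hes1 (0.016) were positive. The log2 fold change of Cxcr4 was -0.30 and that of Ccr9 0.0046. Of 10 markers of single-positive thymocytes, the list that also holds Ccr7, limma called 2 higher and 0 lower (1.68% and 0.127% of all probe sets). The called genes were the integrin chain gene Itgb7 (log2 fold change 1.09) and Ms4a6b (1.20). The other 8 did not pass, and 4 of the 10 were negative (the survival gene Bcl2 lowest at -0.37). The median was 0.24, and the summed signal was 6986 to 7930 on the RUNX2/MYC arrays and 6039 to 6879 on the WT arrays. That gap came mostly from the called genes Itgb7 and Ms4a6b, so the sum says little about the other markers of the list. Beside Ccl3, the cytotoxic granule gene Nkg7 was higher (log2 fold change 0.89, adjusted p = 0.0402 from limma). It was the 1 of 10 markers of natural killer and innate-like T cells to pass (1.80% of all probe sets). Of these 10 markers 6 were positive and 4 negative, with 2 higher and 3 lower without overlap (14.3% and 10.1% of all probe sets). Among the last was the granzyme gene Gzmb at -0.46, and the median of the 10 was 0.0057. The summed signal of that list was 2888 to 3019 on the RUNX2/MYC arrays and 2272 to 2537 on the WT arrays. Most of that sum came from Nkg7 and the granzyme gene Gzma (log2 fold change 0.25, adjusted p = 0.224 from limma), the 2 genes higher without overlap. It therefore says little about the other markers of the list. The part of these cells in the levels of the receptors and of Ccl3 was not tested.

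The genes whose profile over the 6 arrays was most like that of Ccl19 were Cnn3, Lypd8, I830077J02Rik, Gm10590 and Runx1. Likeness was the root mean square difference of their log2 signals after each gene was centered on its own mean, which was 0.13 for Cnn3, 0.17 for Lypd8, 0.19 for I830077J02Rik and 0.20 for both Gm10590 and Runx1. Cnn3, an actin-binding calponin, had log2 signals of 9.79, 10.06 and 9.95 on the RUNX2/MYC arrays, against 10.93, 10.86 and 10.92 on the WT arrays. Runx1, which encodes the RUNX factor needed for early T-cell development, had 10.01, 10.43 and 10.20 on the RUNX2/MYC arrays, against 11.08, 11.38 and 11.24 on the WT arrays. None of the 5 is a chemokine gene by its symbol, and their log2 fold changes, close to that of Ccl19 by the way they were chosen, are a description. The probe set of Gm10590, 10504137, is numbered between the Ccl19 probe sets 10504132 and 10504159. Whether it reads part of the duplicated Ccl19 cluster was not tested.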

How the data were processed

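Whole-thymus RNA was hybridized to 1-color Affymetrix MoGene-1 arrays, 3 per group. The deposited log2 signals were used as given. The submitters' processing notes name RMA (background correction, normalization between arrays, summary per probe set) and Affymetrix Expression Console 1.4, whereas the methods describe import into Partek Genomics Suite, adjusting for GC content. The platform annotation paired 21789 probe sets with 1 symbol, 1621 with several (not named) and 12146 with none. Runx2 was read from the probe set that the study's list of changed probe sets gives for it.

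The groups were compared by limma 3.58.1 in R 4.3.3 (lmFit and eBayes, no covariate), with Benjamini-Hochberg adjustment over 35556 probe sets and calls at an adjusted p under 0.05. The test was checked on artificial data with known changes. The limma p-values set each difference between groups against the spread between these arrays, moderated over all probe sets. With 3 arrays per group the precision is limited. The genes, lists and tests were chosen with earlier results of these data known. Named were the 10 genes, the called genes and the 3 largest changes of each further chemokine list, and the 5 genes closest to Ccl19. Ccl24 was named for the smallest adjusted p of the other ligands. Cell type markers are named where their levels stand beside a result. Alternatives were other scalings of the arrays, a filter on dim probe sets, probe sets of 1 symbol, array weights, limma-trend, the methods' test, a replicate block, the mean of a gene's probe sets and leaving out each array. The methods' test here is a t-test run on the deposited signals, with q values or Benjamini-Hochberg adjustment, and not the study's own output. No raw array files were used, so background correction was not varied.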

Additional observations from a re-analysis of the deposited data

How the results depend on the processing

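Array by array, the calls are fragile. Leaving out each array in turn gave 3 to 1590 called probe sets (641 with all arrays), 0 to 1 called among the 10 genes (2 with all arrays), 0 to 1 signaling genes and 0 other ligands or receptors. The Ccl19 call ended only in the fits with 3 or 4 called probe sets, where nearly all calls were lost, so that loss is not particular to Ccl19. The Ccl3 call ended in those fits and also in the fits with 1590 and 615 called probe sets. Runx2 kept its call in all alternatives that hold its probe set. Over all probe sets the count was 963 under median centering (915 higher and 48 lower), 254 under 75th percentile centering (209 and 45, or 82.3% higher against 93.0%), 581 under cyclic loess (78.7% higher), 1385 with probe sets of 1 symbol only, 13084 with array weights (44.1% higher), 1158 with limma-trend, and 1460 with the methods' t-test at their q threshold (1213 and 247, 83.1% higher) or 195 after Benjamini-Hochberg (162 and 33).

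Of the 10 genes, 1 was called under 75th percentile centering and with the methods' t-test after Benjamini-Hochberg, namely Ccl19, and 5 with array weights. Among the other ligands the count was 1 without dim probe sets and with q values, 4 with probe sets of 1 symbol and 13 with array weights. Among the other receptors it was 1 under median centering, quantile normalization, cyclic loess, probe sets of 1 symbol and q values, and 9 with array weights. Among signaling genes it was 2 with probe sets of 1 symbol and with q values, 8 with array weights, and 0 under 75th percentile centering and after Benjamini-Hochberg.

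Samples with the same replicate number correlated in their deviations from the group means by 0.50, -0.15 and 0.61, and RUNX2/MYC replicate 2 correlated best with WT replicate 3 (0.21), so the numbers were not taken as pairs. A replicate block gave 2417 called probe sets (68.4% higher), 2 of the 10 genes, 4 other ligands, 1 other receptor and 2 signaling genes.

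Signs turned only for genes that did not pass. Ccl25 was 0.046 with the mean of its probe sets. Ccl17 was 0.060 under median centering and -0.17 to 0.075 without single arrays. Ccr7 was 0.069 under median centering, 0.023 with array weights and -0.055 to 0.020 without single arrays. Ccr9 was -0.092 under 75th percentile centering, -0.082 under quantile normalization, -0.10 under cyclic loess and -0.065 to 0.093 without single arrays. Ccr4 was 0.013 under median centering and -0.15 to 0.0032 without single arrays. Ccl19 ran from -1.15 to -0.93 and Ccl3 from 0.54 to 0.74 over 18 alternatives each. The exact permutation test could not serve as an alternative, since its smallest p is 0.1.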
